A study of Mus musculus with 12 samples.

Results

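Chemokines are small secreted proteins that direct the movement of leukocytes, and their receptors are G protein-coupled receptors on the cells that respond. Homeostatic chemokines place lymphocytes in lymphoid tissue, whereas inflammatory chemokines are made on demand and recruit monocytes, neutrophils and effector T cells. In adipose tissue the receptors are carried mainly by resident and recruited immune cells, while ligands can be made by immune, stromal, endothelial and fat cells. MOF (KAT8) is the acetyltransferase that places acetyl groups on lysine 16 of histone H4, a mark of open chromatin.

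MOF occupancy at chemokine and chemokine receptor genes was examined in visceral white adipose tissue of C57BL/6 mice aged 8 weeks and kept on a standard diet. Mof+/+ mice carry both copies of the gene for MOF and Mof+/- mice carry one, in all cells of the body. The labels describe 12 libraries in 6 groups of 2 samples: ChIP of MOF, ChIP of histone H3 and input, each in both genotypes. The values came from 1 list of MOF peaks per genotype, so the variation among animals is not known and no test between genotypes was possible. The genes were the 55 autosomal protein-coding genes of GENCODE mouse M21 named Ccl, Cxcl, Ccr or Cxcr with a number, together with Cx3cl1, Cx3cr1, Xcl1 and Xcr1, of 20807 autosomal protein-coding genes. They comprised 37 ligands and 18 receptors. Cxcr3 lies on the X chromosome and was therefore not among them. It had 0 Mof+/+ peaks at its start site or in its body, and the nearest peak lay 93544 bp away. A promoter peak had at least 1 base within 1000 bp of any annotated transcript start of the gene, and a body peak overlapped the gene record by at least 1 bp. Coordinates are GRCm38.

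There were 19773 Mof+/+ peaks and 731 Mof+/- peaks. At the called summits the median was 16 fragments in Mof+/+ (quartiles 14 and 19) and 14 in Mof+/- (quartiles 12.25 and 17). In Mof+/+ the background went down to 3.52 fragments and the −log10 p of peaks to 3.25, compared with 2.26 and 4.72 in Mof+/-. At Kat8, the gene that encodes MOF, there were 3 Mof+/+ peaks with fold enrichments of 3.54 to 4.65 and 0 Mof+/- peaks. The whole tissue holds several cell types, and in such bulk chromatin fewer cells of a type and less MOF per cell cannot be told apart. Among genes that mark cell types, promoter peaks in the Mof+/+ list were found at 3 of 5 adipocyte genes (Adipoq, Plin1 and Pnpla2), 5 of 5 T cell genes, 4 of 5 B cell genes, 1 of 5 macrophage genes (Cd68), 0 of 5 neutrophil genes and 1 of 5 endothelial genes (Pecam1). In the Mof+/- list, 1 of these 30 genes had a promoter peak, the B cell factor gene Pax5. Over all autosomal protein-coding genes 42.7% had a Mof+/+ promoter peak and 1.37% a Mof+/- promoter peak. A peak at a marker shows binding and not expression.

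The promoter sequences of the chemokine genes on which the results turn are shown here because they differ widely in CpG content. They are RefSeq sequences of GRCm38.p6 that run from 250 bases before to 50 bases after a start site, 5′ to 3′ on the strand of the gene, with every CG in capitals. Ccl25 is the only ligand with a promoter peak, Cxcr4 has the highest fold enrichment among receptor promoter peaks, Ccr1 and Cxcr6 are receptors with a peak at a CpG-poor start, and Cxcl10 is the ligand without a promoter peak that lies nearest to a peak.
Ccl25 (chr8:4324960-4325259, plus strand): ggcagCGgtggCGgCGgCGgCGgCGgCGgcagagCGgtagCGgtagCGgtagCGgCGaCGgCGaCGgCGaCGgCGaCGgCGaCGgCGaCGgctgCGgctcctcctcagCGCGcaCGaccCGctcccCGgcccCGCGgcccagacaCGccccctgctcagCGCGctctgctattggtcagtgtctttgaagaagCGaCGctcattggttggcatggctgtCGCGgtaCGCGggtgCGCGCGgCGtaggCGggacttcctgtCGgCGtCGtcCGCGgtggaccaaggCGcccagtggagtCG
Cxcr4 (chr1:128592250-128592549, minus strand): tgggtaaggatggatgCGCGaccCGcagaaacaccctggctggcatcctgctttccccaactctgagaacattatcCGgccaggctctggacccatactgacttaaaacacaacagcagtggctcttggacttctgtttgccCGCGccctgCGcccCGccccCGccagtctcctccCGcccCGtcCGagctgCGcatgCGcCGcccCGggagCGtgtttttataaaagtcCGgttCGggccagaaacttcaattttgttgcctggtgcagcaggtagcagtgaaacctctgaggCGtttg
Ccr1 (chr9:123968643-123968942, minus strand): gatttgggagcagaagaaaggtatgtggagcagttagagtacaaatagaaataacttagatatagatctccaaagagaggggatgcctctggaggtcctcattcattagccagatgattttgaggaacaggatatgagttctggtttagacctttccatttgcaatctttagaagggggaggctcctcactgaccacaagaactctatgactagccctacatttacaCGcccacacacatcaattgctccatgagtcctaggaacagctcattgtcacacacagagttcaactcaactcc
Cxcr6 (chr9:123806227-123806526, plus strand): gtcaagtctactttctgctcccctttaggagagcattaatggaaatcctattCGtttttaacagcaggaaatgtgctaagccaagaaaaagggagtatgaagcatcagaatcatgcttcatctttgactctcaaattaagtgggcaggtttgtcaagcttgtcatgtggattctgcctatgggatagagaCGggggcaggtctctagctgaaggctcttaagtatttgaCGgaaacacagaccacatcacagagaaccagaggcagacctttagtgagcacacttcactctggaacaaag
Cxcl10 (chr5:92348840-92349139, minus strand): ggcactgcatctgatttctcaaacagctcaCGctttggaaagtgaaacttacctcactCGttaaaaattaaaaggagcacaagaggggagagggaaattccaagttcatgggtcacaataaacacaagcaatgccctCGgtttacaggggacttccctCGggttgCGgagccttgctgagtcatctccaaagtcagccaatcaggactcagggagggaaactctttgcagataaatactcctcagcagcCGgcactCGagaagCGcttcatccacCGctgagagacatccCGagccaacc
These windows held 52 CG for Ccl25, 20 for Cxcr4, 1 for Ccr1, 3 for Cxcr6 and 10 for Cxcl10. The Ccl25, Cxcr4, Ccr1 and Cxcr6 windows each overlapped 1 Mof+/+ peak, and the Cxcl10 window overlapped 0.

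MOF promoter peaks lay at some of the chemokine receptor genes, at a share not set apart from that of all coding genes. They were almost absent from the chemokine ligands. In Mof+/+ tissue 7 of the 55 genes had a promoter peak (12.7%, 95% Wilson interval 6.30 to 24.0), whereas 42.7% of all autosomal protein-coding genes had one. Among the receptors, 6 of 18 had a promoter peak (33.3%, 16.3 to 56.3): Cxcr4, Ccr7, Cxcr5, Ccr9, Cxcr6 and Ccr1. Among the ligands there was 1 of 37 (2.70%, 0.479 to 13.8), Ccl25. The shares differed by 30.6 percentage points, and the interval of the ligands ended below the start of that of the receptors. The receptor interval contained the share over all genes and the ligand interval did not. These intervals cover counting error only, and neighbouring genes of a cluster are not independent of each other. With peaks of a q-value of at most 0.001 the difference came down to 8.41 points, with Cxcr4, Cxcr5 and Ccl25 left. At that limit 2 of 18 receptors (11.1%, 3.10 to 32.8) and 32.7% of all coding genes had a promoter peak, so that the intervals of receptors and ligands overlapped.

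**Figure D1:**
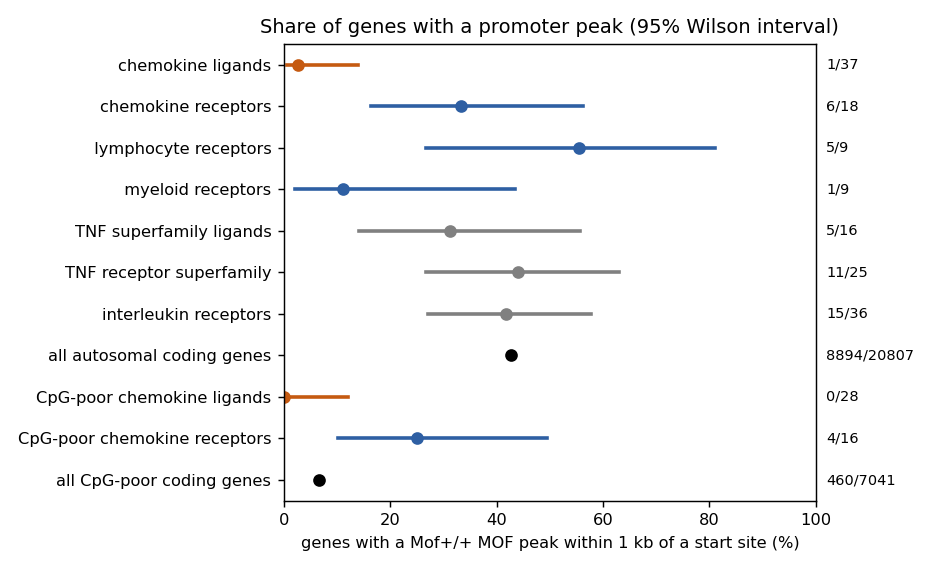
Share of genes (%, horizontal axis) with a Mof+/+ MOF peak within 1 kb of a start site, by gene group (vertical axis). Points are shares, lines are 95% Wilson intervals and the numbers at the right give genes with a peak over genes in the group; 1 of 37 ligands and 6 of 18 receptors had a peak, and CpG-poor genes have up to 27 CpG sites around the start.

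In Mof+/- tissue 0 of the 55 genes had a promoter peak, and the Wilson interval of that share ended at 6.53%. Over all autosomal protein-coding genes 1.37% had a Mof+/- promoter peak, so that a loss particular to chemokine genes was not detectable at this number of peaks. When the Mof+/+ list was reduced to its strongest peaks until it was as long as the Mof+/- list, it also had 0 promoter peaks at these genes.

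Within gene bodies, 9 of the 18 receptors and 1 of the 37 ligands overlapped a Mof+/+ peak, 10 genes in all, compared with 43.2% of all autosomal protein-coding genes. The receptors were Ccr1, Ccr6, Ccr7, Ccr9, Ccr10, Cxcr4, Cxcr5, Cx3cr1 and Xcr1, and the ligand was Ccl25. Only Cxcr5 overlapped a Mof+/- peak, 1 of the 55 genes, and the share over all genes was 1.56%. With a peak at the promoter or in the body, 10 of 18 receptors (55.6%, 33.7 to 75.4) and 1 of 37 ligands had a Mof+/+ peak, and the share over all coding genes was 45.5%, inside the interval of the receptors. Receptor genes are longer, with a median of 9716.5 bp against 3498 bp for ligands, and the median over all genes was 17629 bp. The part of gene length in the body counts was not tested.

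Receptors of lymphocyte homing and positioning and receptors of myeloid cells were then compared. A promoter peak was present at 5 of 9 lymphocyte receptors (55.6%, 26.7 to 81.1) and at 1 of 9 myeloid receptors (11.1%, 1.99 to 43.5), so the intervals overlapped. The share over all autosomal protein-coding genes, 42.7%, lay inside both intervals. The lymphocyte receptors with a peak were Cxcr4, Ccr7, Cxcr5, Ccr9 and Cxcr6. Those without were Ccr4, Ccr6, Ccr8 and Ccr10. The myeloid receptor with a peak was Ccr1, and those without included Ccr1l1, Ccr2, Ccr3, Cxcr1, Cxcr2, Cx3cr1 and Xcr1. Beside this stand the marker genes given above, with promoter peaks at 9 of the 10 B and T cell genes and at 1 of the 10 macrophage and neutrophil genes. The part of cell composition in the receptor counts was not tested.

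Cxcr4 is the receptor of Cxcl12 and keeps haematopoietic cells in their niches. A single peak of 3042 bp (chr1:128590445-128593486) covered both annotated start sites and 45.2% of the gene. Its fold enrichment was 5.97 with a −log10 p of 14.7, from 26 fragments over a background of 3.52, and it ranked 643 by p among the 19773 peaks. The summit lay in an intron, 898 bp after the nearest start. No other coding gene started within 1 kb. This was the promoter peak with the highest fold enrichment among the chemokine receptors.

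Ccr7 guides T cells and dendritic cells into lymph nodes in response to Ccl19 and Ccl21. Its peaks formed a chain of 5 over 13355 bp (chr11:99142430-99155784), and 88.4% of the gene lay in peaks. Only 0.543% of all coding genes were covered to at least that degree. The promoter peak (chr11:99154286-99155784) was among the weaker of the chain, with a fold enrichment of 2.90, a −log10 p of 4.84 and 16 fragments. The strongest peak (chr11:99142430-99149192) was 6763 bp wide and reached past the 3′ end of the gene. It had a fold enrichment of 5.70, a −log10 p of 15.7 and 30 fragments, ranked 492 by p, and had its summit in an exon outside the coding sequence, 10140 bp after the start. The other peaks of the chain lay between them in introns, with fold enrichments of 2.38, 3.32 and 4.87.

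Cxcr5 is the receptor of Cxcl13 and brings B cells and follicular helper T cells into B cell follicles. It had 9 Mof+/+ body peaks over 28733 bp (chr9:44509442-44538174), and 0.870% of coding genes had at least as many. Their fold enrichments ran from 2.51 to 5.52 and their −log10 p from 3.25 to 14.5. The promoter peak (chr9:44523480-44526915) covered 2 of the 5 annotated transcript starts, those at 44526421 and 44526582. It had a fold enrichment of 4.57, a −log10 p of 10.5 and 23 fragments, with its summit in an intron 1485 bp after the nearest start. The transcript starts at 44556286, 44556391 and 44561877, farther upstream, had no peak within 1 kb. The strongest peak (chr9:44509442-44513215, fold enrichment 5.52, −log10 p 14.5, 28 fragments) covered the 3′ end of Cxcr5 and had its summit in an exon of the neighbouring gene Bcl9l.
The sequence of 101 bases around the promoter peak's summit is shown as the summit nearest to a start site of this receptor, although peaks with fold enrichments of 4.83, 5.09 and 5.52 lay farther into the gene. It is given on the plus strand of GRCm38.p6 with CG in capitals.
Cxcr5 summit (chr9:44524886-44524986): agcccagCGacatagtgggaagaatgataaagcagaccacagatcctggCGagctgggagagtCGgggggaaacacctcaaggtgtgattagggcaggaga

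Cxcr5 was also the single chemokine gene with a Mof+/- peak (chr9:44511872-44512278), which lay within the strongest of its Mof+/+ peaks. Its fold enrichment was 3.68, and its −log10 p 5.33, from 11 fragments over a background of 2.26. It ranked 644 by p of 731 peaks, so it was among the weaker peaks of that list. The summit lay in an exon of Cxcr5 outside the coding sequence, 14432 bp after the nearest start. At a q-value of at most 0.01 this peak was no longer in the list. No ligand start site was closer than 162277 bp to a Mof+/- peak. The median distance to a Mof+/- peak was 1.95e+06 bp for ligands, 2.98e+06 bp for receptors and 1.71e+06 bp for all coding genes.

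**Figure D2:**
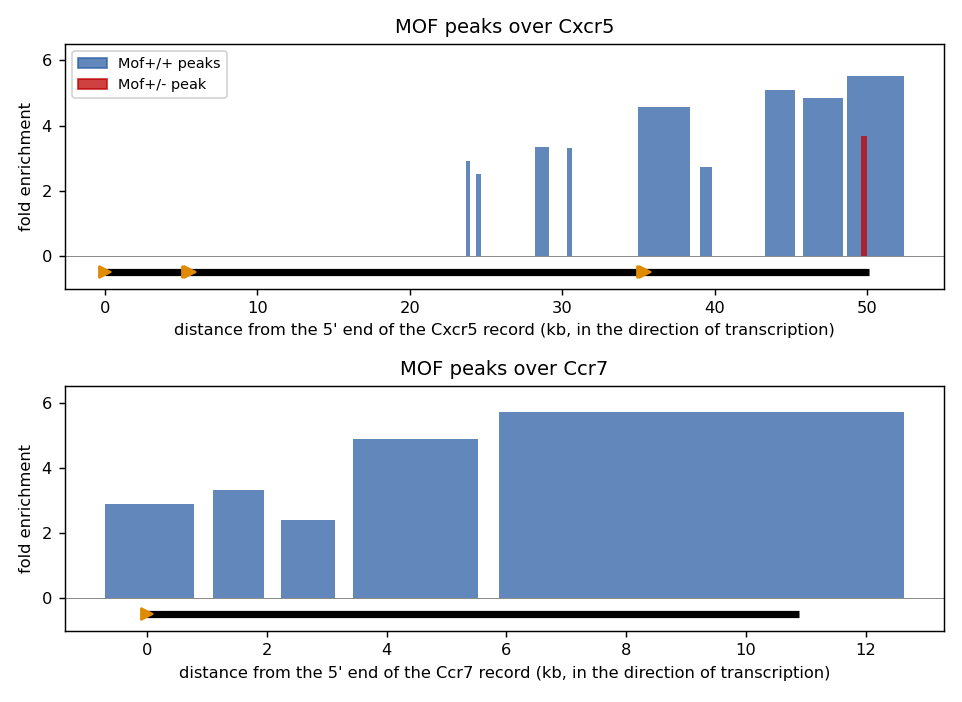
Fold enrichment (vertical axis, a ratio) of MOF peaks over Cxcr5 and Ccr7 against the distance from the 5′ end of the gene record (kb, horizontal axis). Bars span each peak, blue for Mof+/+ and red for Mof+/-, the black line is the gene and orange arrowheads are annotated transcript starts; the 5 Ccr7 peaks cover 88.4% of the gene, and the single Mof+/- peak lies at the 3′ end of Cxcr5.

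Ccr9 directs T cells to the thymus and the small intestine. Its promoter peak (chr9:123678115-123678780) had a fold enrichment of 3.32, a −log10 p of 5.34 and 14 fragments. It was at 1 of 6 annotated Ccr9 transcripts, whose start at 123678439 lies far upstream of the others. Slc6a20a, an amino acid transporter gene, and the noncoding gene Gm17200 also start within 1 kb of this peak, and to which of the genes it belongs cannot be told apart. The remaining Ccr9 transcripts start between 123767169 and 123774540 and had no promoter peak. There were 2 further peaks in an intron, with fold enrichments of 3.98 and 2.93.

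Cxcr6, the receptor of Cxcl16 on effector and resident T cells, and Ccr1, a receptor of Ccl3 and Ccl5 on monocytes and neutrophils, had the weakest of these promoter peaks by p. The Cxcr6 peak (chr9:123805875-123806306) ended 169 bp before the nearest start, with a fold enrichment of 2.90, a −log10 p of 4.49 and 14 fragments. Its summit lay in an intron of the overlapping gene Fyco1. The Ccr1 peak (chr9:123968607-123969010) covered the single start site, with a fold enrichment of 2.71, a −log10 p of 3.93 and 13 fragments, and had its summit at −264 bp relative to that start. Both were outside the list at a q-value of at most 0.01. Over the 6 receptor promoter peaks the median fold enrichment was 3.11 (2.71 to 5.97) and the median −log10 p 5.09. Over all 10141 peaks at coding start sites the medians were 3.76 and 7.17.

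Receptors with a peak in the body but none at the promoter were Ccr10, Ccr6, Xcr1 and Cx3cr1. Ccr10, the skin and mucosal homing receptor of Ccl27 and Ccl28, was covered over 47.6% of its length by a peak that began 1015 bp from its start site (chr11:101173264-101174428). Its fold enrichment was 3.98 and its −log10 p 7.41, and the summit lay in the coding sequence of Ccr10 and in an intron of Cntnap1. Ccr6, the receptor of Ccl20, had an intronic peak 1948 bp from the nearest start (chr17:8239222-8240578) with a fold enrichment of 2.44 and a −log10 p of 3.64. These 2 genes and Xcr1, whose nearest peak lay 1270 bp upstream of its start, were the closest of those outside the 1 kb window, and Cxcr6 at 169 bp was the farthest inside it. With a window of 3 kb, 9 receptors and 1 ligand had a promoter peak. The share over all coding genes at that window was 44.6%, inside the interval of the receptors and above that of the ligands.

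The body peak of Xcr1 and 2 of the 4 body peaks of Cx3cr1 were within 1 kb of the start of another coding gene. Xcr1 is the receptor of Xcl1 on dendritic cells that cross-present antigen. The peak at its 3′ end (chr9:123852140-123852987, fold enrichment 2.87) was within 1 kb of a Fyco1 start. Cx3cr1, the fractalkine receptor of monocytes, microglia and tissue macrophages, has a long gene record of 168264 bp with 4 Mof+/+ peaks. The strongest (chr9:119981672-119984199) had a fold enrichment of 8.85, a −log10 p of 27.5 and 39 fragments, and ranked 36 by p of the whole list. It was 84084 bp from the nearest Cx3cr1 start and within 1 kb of a start of Csrnp1. Another, with a fold enrichment of 2.31, was also near a Csrnp1 start, and the other 2, with fold enrichments of 3.24 and 3.17, were within 1 kb of no coding start. The nearest peak to a Cx3cr1 start itself was 40587 bp away.

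The receptors with no peak at the promoter or in the body included Ccr1l1, Ccr2, Ccr3, Ccr4, Ccr8, Cxcr1 and Cxcr2. Ccr2 receives Ccl2 on inflammatory monocytes, and its nearest peak was 33171 bp from a start site. For the eosinophil receptor Ccr3 this distance was 36429 bp and for the Ccr1-like receptor Ccr1l1 6855 bp. The RefSeq promoter window of Ccr1l1 (chr9:123986666-123986965) lies farther upstream than its nearest peak (chr9:123985263-123985543). Whether Ccr1l1 has a peak therefore depends on the annotation, which here was GENCODE. The T cell receptors of Ccl17 and Ccl22 and of Ccl1, Ccr4 and Ccr8, were 79030 bp and 18352 bp from a peak. For the neutrophil receptors Cxcr1 and Cxcr2 the distances were 41653 bp and 82293 bp, and the latter was the largest among the receptors.

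The ligand peak, at Ccl25, had a fold enrichment of 4.65, a −log10 p of 9.68 and 20 fragments (chr8:4324795-4325510). Ccl25 is the thymic and intestinal chemokine that acts through Ccr9. The peak covered the starts of 7 of its 10 transcripts, and its summit lay 129 bp after the nearest start. Elavl1, which encodes an RNA-binding protein, starts within 1 kb in this CpG-rich window, and the summit lay in exons of both genes outside their coding sequence. The coding transcripts that start at 4349588 had no peak within 1 kb. Ccl25 and Ccr9 are a ligand and its receptor, and both promoter peaks were shared with the start of another coding gene. Without peaks shared in this way there were 0 ligands and 5 receptors (27.8%, 12.5 to 50.9) with a promoter peak, and 32.5% of all coding genes.

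The ligands without a promoter or body peak were the remaining 36. The 20 inflammatory ligands were Ccl1, Ccl2, Ccl3, Ccl4, Ccl5, Ccl6, Ccl7, Ccl8, Ccl9, Ccl11, Ccl12, Ccl20, Ccl24, Ccl26, Cxcl1, Cxcl2, Cxcl3, Cxcl5, Cxcl9 and Cxcl10, and a count of 0 among them allows a share of up to 16.1%. The homeostatic ligands were Ccl19, Ccl21a, Ccl21b, Ccl27a, Ccl27b, Ccl28, Cxcl12, Cxcl13 and Cxcl14, which with Ccl25 gave 1 of 10. The other 7 ligands were Ccl17, Ccl22, Cx3cl1, Cxcl15, Cxcl16, Cxcl17 and Xcl1. Some of these start sites lie in sequence that short reads can hardly place. Of the 50-base words around them, 0% occurred once in the genome at Ccl21b and Ccl27b, 23.4% at Ccl21a, at most 29.5% at Ccl19 and at most 48% at Ccl27a. Without these 5 genes, 1 of 32 ligands had a promoter peak (3.13%, 0.554 to 15.7).

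Distances to the nearest Mof+/+ peak also differed between ligands and receptors. The median distance from a start site was 66241 bp for ligands (quartiles 27054 and 203327), 4401.5 bp for receptors (quartiles 42.25 and 39547.5) and 10989 bp for all coding genes. More than 100 kb from any peak were 17 ligands (45.9%) and 0 receptors, compared with 26.6% of all coding genes. These ligands are not independent of each other. Ccl1, Ccl2, Ccl7, Ccl8, Ccl11 and Ccl12 shared the same nearest peak, and so did Cxcl3, Cxcl5 and Cxcl15. Ccl19, Ccl21a, Ccl21b and Ccl27b, also among them, lie in the repeated sequence that short reads can hardly place. The monocyte attractant Ccl2 was the farthest at 632105 bp, and its cluster neighbours Ccl7, Ccl11, Ccl12 and Ccl8 were 552530 to 622003 bp away. Cxcl12, the stromal ligand of Cxcr4, was 486207 bp from a peak, and Cxcl13, the ligand of Cxcr5, 203327 bp. The interferon-induced ligand Cxcl10 was nearest among ligands without a promoter peak, with a peak of fold enrichment 2.88 at 3930 bp (chr5:92352819-92353326). Cxcl16, the ligand of Cxcr6, followed at 6780 bp, and its nearest peak was within 1 kb of a start of Med11. Ccl3, a macrophage inflammatory protein, was 9031 bp from a peak.

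**Figure D3:**
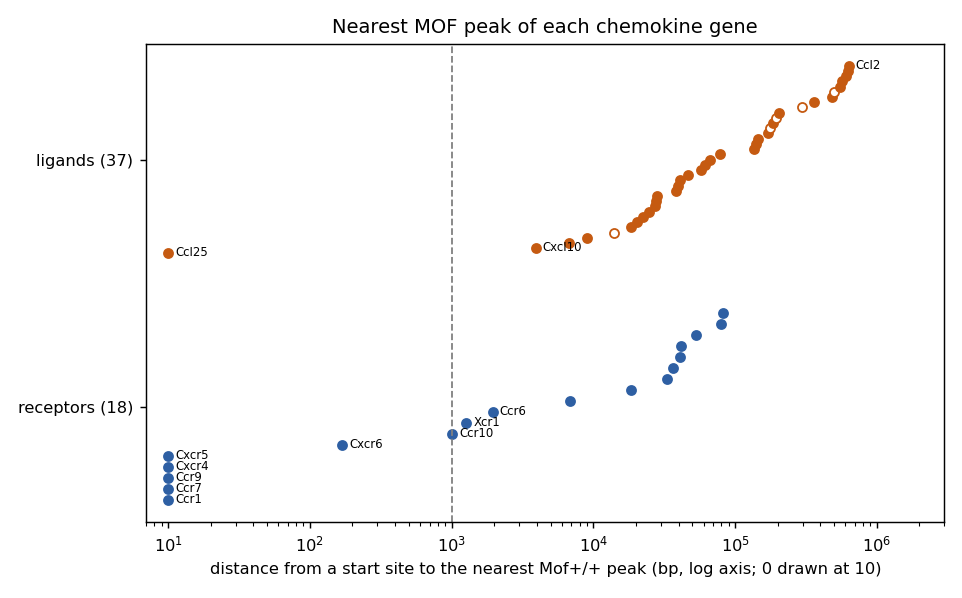
Distance from a start site to the nearest Mof+/+ MOF peak (bp, log axis, with 0 drawn at 10) for each of the 37 ligands (orange) and 18 receptors (blue), ordered by distance within each group. The dashed line marks 1000 bp and open circles are genes with less than 50% unique 50-base words at every start; 1 ligand and 6 receptors lie left of the line, and 17 ligands lie beyond 100 kb.

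CpG content of the start site was considered because it went along with MOF peaks over the genome. Over all coding genes a promoter peak was present at 6.53% of genes of the CpG-poor class (up to 27 CpG sites in the 500 bases on each side of the start), 50.2% of the intermediate class and 72.7% of the CpG-rich class (above 69), the 3 classes being of nearly equal size. Chemokine genes were mostly CpG-poor, with a median of 14 sites for ligands and 12 for receptors against 51 for all coding genes. In the CpG-poor class, 0 of 28 ligands (up to 12.1%) and 4 of 16 receptors (25.0%, 10.2 to 49.5) had a promoter peak. The receptors were Ccr1, Ccr7, Cxcr5 and Cxcr6. Read against the share of 6.53%, the ligand count was near that of other CpG-poor genes, and the receptor interval lay above it. This rests on the weak peaks of Ccr1 and Cxcr6, since at a q-value of at most 0.01 there were 2 of 16 receptors (12.5%, 3.50 to 36.0) and 5.44% of all CpG-poor genes, and the interval then contained that share. The remaining receptors, Cxcr4 with 43 sites and Ccr9 with 77, both had a peak. Of the 9 ligands outside the CpG-poor class, Ccl25 had a peak. In the intermediate class it was 0 of 6 ligands, and the interval (up to 39.0%) ended below the 50.2% of that class. Among these 6, Cxcl1, Cxcl2 and Cxcl5 lie in the same cluster and Ccl27a lies in repeated sequence. In the CpG-rich class it was 1 of 3 ligands (33.3%, 6.15 to 79.2), an interval that contained the 72.7% of that class. Cxcl12 with 79 sites and Cxcl14 with 86 were CpG-rich without one.

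Chemokine genes lie in clusters, which were compared as whole intervals. The receptor cluster on chromosome 9 that begins with Ccr9 holds 8 receptors in 469.3 kb and had 17 Mof+/+ peaks, 36.2 per Mb, while the autosomes had 7.95 per Mb. Of its 8 receptors, Ccr9, Cxcr6 and Ccr1 had a promoter peak. Another 11 peaks lay at no receptor start or body of the GENCODE annotation, and 10 of these were at no coding start site at all. Between Xcr1 and Ccr1, 6 such peaks lay within 17983 bp (chr9:123923678-123941660), with fold enrichments of 2.88 to 4.87. They were 27032 to 45014 bp downstream of the Ccr1 start, past the 3′ end of that gene.

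The 5 ligand clusters had 0 or 1 Mof+/+ peaks each. The chromosome 11 cluster from Ccl2 to Ccl1 (6 ligands, 270.1 kb) had 0 peaks, and the one from Ccl5 to Ccl4 (5 ligands, 138.9 kb) had 1 (chr11:83639804-83640324, fold enrichment 2.98), which was at no coding start. There were 0 peaks in the chromosome 5 cluster of the neutrophil attractants from Cxcl5 to Cxcl2 (5 ligands, 146.6 kb) and in the chromosome 8 cluster of Ccl22, Cx3cl1 and Ccl17 (66.4 kb). The chromosome 4 cluster from Ccl27a to Ccl21a (5 ligands) also had 0 peaks in 1004.5 kb, and its 5 ligands are the genes of repeated sequence named above. Apart from the chromosome 4 cluster, the ligand intervals are shorter than the receptor cluster, so a count of 0 or 1 leaves their density uncertain. In the Mof+/- list, which holds 731 peaks in the whole genome, all 6 clusters had 0 peaks.

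**Figure D4:**
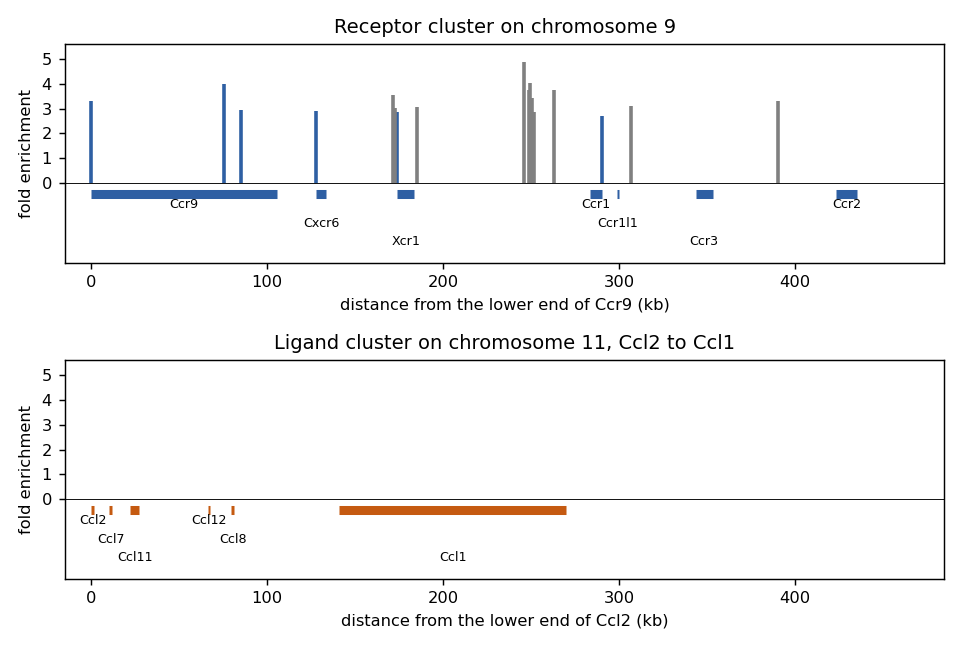
Fold enrichment (vertical axis, a ratio) of Mof+/+ MOF peaks in the chromosome 9 receptor cluster and the chromosome 11 ligand cluster from Ccl2 to Ccl1, against the distance from the lower end of the first gene (kb, horizontal axis). Each vertical line is a peak, blue at the start or body of a chemokine receptor and grey elsewhere, and thick bars are named genes; the receptor cluster has 17 peaks and the ligand cluster 0.

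Other families of immune ligands and receptors and the genes of the chemokine pathway were read in the same way. A promoter peak was present at 5 of 16 TNF superfamily ligands (31.3%, 14.2 to 55.6), 11 of 25 TNF receptors (44.0%, 26.7 to 62.9) and 15 of 36 interleukin receptors (41.7%, 27.1 to 57.8). The intervals of these families overlapped that of the chemokine receptors, and each started above the end of that of the chemokine ligands. Each also contained the share over all autosomal protein-coding genes, 42.7%. Of the atypical receptors and related genes, 1 of 9 had a promoter peak, Cmklr1, the chemerin receptor. Of the genes that carry the signal from chemokine receptors, 21 of 25 had one (84.0%, 65.3 to 93.6), among them the G protein subunit gene Gnai2, the kinase gene Pik3cg and the Rac activator gene Dock2. Gnai1, Grk3 and Rgs1 had none. Cxcr3, also without a peak, is a receptor that stood on this list by mistake, and without it the count was 21 of 24 (87.5%, 69.0 to 95.7). Both intervals of the signalling genes lay above 42.7% and contained the 72.7% of all CpG-rich genes. The part of CpG content in the signalling count was not tested. All 6 NF-κB genes listed (Nfkb1, Nfkb2, Rel, Rela, Relb and Nfkbia) had a Mof+/+ promoter peak, and Rel also had a Mof+/- promoter peak. In the Mof+/- list the counts were 0 for TNF ligands, TNF receptors, interleukin receptors, atypical receptors and signalling genes. The share over all autosomal protein-coding genes in that list was 1.37%.

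Promoter sequences were matched for 27 ligands, 14 receptors and 15687 coding genes in all. The sequence matched to Ccl21b (chr4:42172870-42173169) lies far upstream of its gene record (chr4:42255767-42256432). Motifs were counted on both strands, except TATAAA, which was read on the strand of the gene, and bases shared between matches of different motifs were allowed. The NF-κB consensus was present in 8 ligand promoters (29.6%: Ccl1, Ccl9, Ccl20, Ccl27a, Cxcl1, Cxcl2, Cxcl3 and Cxcl10), 3 receptor promoters (21.4%: Ccr1, Ccr3 and Ccr6) and 11% of all promoters. TATAAA was present in 9 ligand promoters (33.3%), 1 receptor promoter (7.14%, Cxcr4) and 9.43% of all. The AP-1 motif TGANTCA was present in 6 ligand promoters (22.2%), 3 receptor promoters (21.4%) and 8.20% of all, so its share was similar in ligands and receptors. The interferon response motif was found at Ccl19, Cxcl10 and Cxcl14, at 0 receptors and in 4.05% of all. TTCNNNGAA, the GAS motif, was in 2 ligand and 2 receptor promoters and in 9.05% of all, and the PU.1 core GAGGAA was in 10 ligand and 4 receptor promoters and in 30.4% of all. Of the 27 ligands with a sequence, only Ccl25 had a promoter peak. Its only motif, TATAAA, was in its window at chr8:4349338-4349637, which overlapped 0 Mof+/+ peaks. The motifs at ligands were thus in promoter windows without a peak.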

How the data were processed

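MOF was profiled by ChIP-seq in visceral white adipose tissue of Mof+/+ and Mof+/- mice. The authors mapped reads to GRCm38 and called peaks with MACS2 (2.1.1.20160309.3 per the labels) against input at a q-value threshold of 0.1. The deposited fold enrichment is a ratio of fragments at the summit to local input background, with 1 added to each. The deposited −log10 p and −log10 q are those of the same caller. The deposited score column was not used. Each genotype has 1 list, and how its replicates were combined is not given in the sources used here. The methods describe a later merging of peaks closer than 1000 bp within a cell type. The lists still held 3796 (Mof+/+) and 148 (Mof+/-) pairs of neighbours at or under that distance, so they were taken as made before it. Chromatin was cut with CviKI-1, so fragment ends depend partly on sequence. The design text and the labels differ in the number of Mof+/- animals. The labels name another MOF antibody than the study's reporting summary. H3 libraries were not analysed here.

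Peaks were assigned to GENCODE M21 genes with Python 3.11.15 (pandas 2.3.3, numpy 2.4.6, scipy 1.17.1), and the assignment was tested on simulated peaks. Depth is not given in the lists. Fragments and background at summits were solved from fold enrichment and the Poisson p, with a tolerance of 0.002 in −log10 p, for 19771 Mof+/+ and 730 Mof+/- peaks. CpG sites were counted in the 500 bases on each side of the start site richest in CpG. Unique words were 50 bases long and counted within 1000 bp of starts. Clusters had at least 3 genes of the set with gaps of at most 1 Mb. Intervals are 95% Wilson intervals. No test was run, since the lists hold no replicates and genes are no replicates of a condition.

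The members and lists were chosen with earlier results of these data known. All members entered the counts, and some genes are not reported here by name. Full values were given for those with a promoter, body or Mof+/- peak and those nearest the 1 kb limit, and promoter or summit sequences were shown for some of these. Alternatives were windows of 500 bp and 3 kb, the summit in place of the peak, coding transcripts only, q-values of at most 0.01 and 0.001, merged peaks, a common p-value limit and lists of equal length. Leaving out peaks shared with another coding start and leaving out genes of repeated sequence were added after the data were seen.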

Additional observations from a re-analysis of the deposited data

Results flagged for a closer look

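The chemokine gene clusters held 12 Mof+/+ peaks that lay at no start site or body of a chemokine gene in the GENCODE annotation. This puts them outside the comparison of ligands with receptors. Of these, 11 lay in the receptor cluster on chromosome 9, where 1 was at a start site of Fyco1 and 10 were at no coding start site, and 1 lay between Ccl5 and Ccl4 on chromosome 11. In the Mof+/- list, which holds 731 peaks in the whole genome, the clusters had 0 peaks. No gene was assigned to these peaks.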

How the results depend on the processing

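Of 79 values under alternatives, 64 stayed within the limit for no change (for counts, 1.5 times), 15 moved and 0 changed direction. With q-values of at most 0.001, 3 genes (2 receptors) kept a promoter peak. The difference between receptor and ligand shares was 47.3 points with the 3 kb window, 19.5 when q-values had to reach 0.01, 8.41 when they had to reach 0.001 and 19.5 with Mof+/+ peaks past the weakest Mof+/- p. With the Mof+/+ list reduced to the length of the Mof+/- list, the promoter counts were 0 for all genes, ligands and receptors, the difference was 0, the share over all coding genes was 3.36% and 2 genes (Ccr7 and Cx3cr1) had a body peak. Without peaks shared with another coding start, 0 ligands were left. The Mof+/- body count was 0 at q-values of at most 0.01 and 0.001. When the summit had to lie within 1 kb, Cxcr5 dropped out. The intervals of receptors and ligands overlapped at both q-value limits and with the summit within 1 kb. They also overlapped with Mof+/+ peaks past the weakest Mof+/- p and with lists of equal length. At the 3 kb window the share over all coding genes, 44.6%, lay inside the interval of the receptors. By construction the 3 kb window takes in more peaks and the other settings named here keep fewer. No paired analysis was possible because the single list of a genotype carries no replicate columns, and for the same reason no replicate could be left out. With medians of 16 and 14 fragments at summits, binding below the peak caller's limit was not detectable.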
